A study of Homo sapiens with 5 samples.

Results

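Collagens and laminins are the structural proteins of connective tissue fibrils and of the basement membrane, and their transcripts were compared between cells with raised JUN and control cells. Members were all genes of the count table whose identifier mapped to a protein-coding collagen chain gene (COL, number, A, number) or to a laminin α, β or γ chain gene. There were 56 such genes among 23459, of which 44 were collagens and 12 were laminins. Of these, 45 reached at least 1 CPM (counts-per-million) in at least 2 libraries and are reported here, 33 of them collagens and all 12 laminins. The filter for the statistical test kept 36 of them, 26 collagens and 10 laminins.

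All libraries came from MCF10A SAM cells. MCF10A is a human line of immortalised breast epithelium, and the SAM derivative carries dCas9-VP64 and MCP-p65-HSF1, an activator system that a guide RNA brings to a chosen promoter. The study describes its SAM cells as clonal, and whether both groups descend from 1 clone is not given in the sources used here. The control group, NTC, received a non-targeting guide (3 libraries), and the other group, sgJUN#1, received 1 guide against the promoter of JUN, a subunit of the AP-1 transcription factor (2 libraries). No second JUN guide was analysed here. The study describes its sequencing replicates as biological, while the labels do not say how they were grown, and p-values measure the spread between these libraries. The study asked how JUN affects genes controlled by the co-activator YAP. The comparison here is of cells with the JUN guide and control cells. Effects of raised JUN and other effects of this 1 guide cannot be told apart in it.

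Library totals ranged from 2455627 to 4988062 counts, so that a gene counted 0 times could still stand at up to 3 counts, or 0.601 to 1.22 CPM, a limit that covers counting error only. JUN stood at 25.0, 36.2 and 9.32 CPM in NTC replicates 1 to 3 and at 171.5 and 265.5 CPM in sgJUN#1 replicates 1 and 2. The groups did not overlap, in the direction of the labels, with a log2 fold change of 3.25 (SE 0.484, adjusted p-value 0.0733 by edgeR, DESeq2 adjusted p-value 7.33e-12). An exact two-sided permutation test cannot go below 0.1 with this number of libraries, and gave 0.1. All 11 epithelial markers were present at 1 CPM in at least 2 libraries. Of 7 fibroblast or mesenchymal markers 5 were, including PDGFRA at 148.8 to 207.8 CPM, while THY1 was at 0 in every library. Endothelial markers summed to 7.87 to 12.2 CPM and immune markers to 5.55 to 17.5 CPM, and CD3E was at 0.

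As background, every collagen is a trimer of α chains with repeated triple-helical stretches. Fibrillar collagens build the cables of connective tissue, FACIT collagens (fibril-associated, with interrupted triple helices) sit on those cables, and network collagens such as IV and VIII form sheets. Laminins are cross-shaped trimers of an α, a β and a γ chain that polymerise next to the cell and are bound by integrins. Mammary epithelium rests on a basement membrane of laminin and collagen IV. Basal epithelial cells are fastened to it by hemidesmosomes, in which laminin-332, which contains the LAMA3 and LAMB3 chains, is held by the integrin chains ITGA6 and ITGB4 and by collagen XVII.

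Of the 36 tested members, COL8A1 alone changed at an edgeR adjusted p-value under 0.05 (2.78%), and it fell. Over all 13616 tested genes the same call was made for 28 (0.206%), of which 0.125% were lower and 0.0808% higher in sgJUN#1. By sign alone 21 members were lower and 15 higher (58.3% lower, against 51.0% of all tested genes), and the median log2 fold change was -0.17, against -0.0082 over all tested genes. With p-values left unadjusted, 6 members were under 0.05, all lower (16.7%), against a background of 8.38% in either direction, 4.36% lower and 4.02% higher. DESeq2 called the same single member, with 1.00% of all genes called. In 9 members (25.0%) every sgJUN#1 value lay below every NTC value, and in 0 above. Over all tested genes 25.0% had groups that did not overlap, 12.8% below and 12.2% above. The share of members without overlap therefore matched the background, and what differed from it by description was their direction. That direction was less uniform in some fits with 1 library left out or with another filter. Without NTC replicate 1 the members without overlap were 14 below and 0 above, of 36 tested. The counts were 9 and 6 of 37 without NTC replicate 2, and 9 and 2 of 33 without NTC replicate 3. With no filter they were 11 and 2 of 56, and with a filter of 1 CPM in 2 libraries 11 and 1 of 45. Members above NTC also appeared when either sgJUN#1 library was left out. No share over all genes is given for these fits, so the counts are a description.

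**Figure D1:**
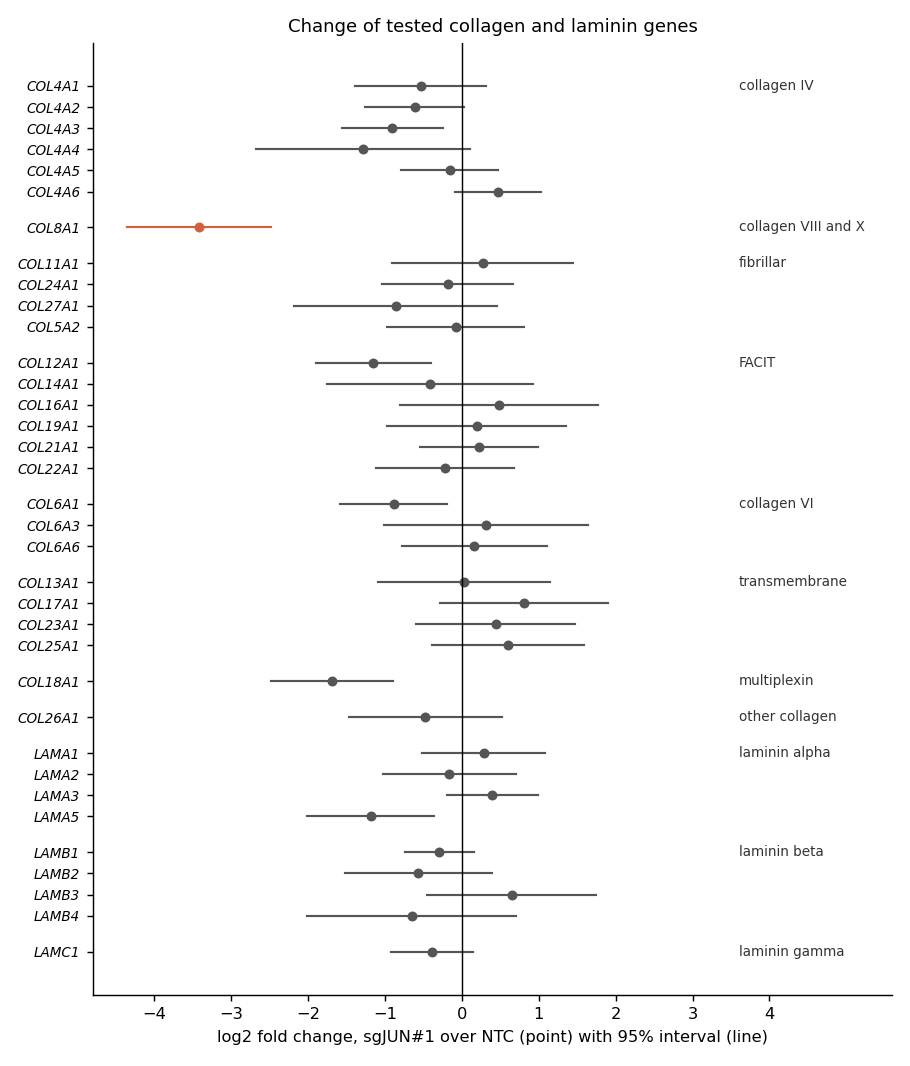
Log2 fold change of sgJUN#1 over NTC for tested collagen and laminin genes, grouped by class on the vertical axis, with points for the edgeR estimate and lines for its 95% interval. COL8A1, in orange, is the gene past the adjusted threshold at -3.42, and its interval, from -4.36 to -2.49, lies wholly below 0.

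COL8A1 encodes a chain of collagen VIII, a short-chain network collagen known from the matrix beneath vascular endothelium and from the cornea. It was counted at 562.2, 1092 and 1373 CPM in the NTC libraries and at 113.9 and 73.3 CPM in the sgJUN#1 libraries. The groups were far apart, and the lowest control library stood well above both JUN libraries. The means were 1009 ± 412 CPM (SD, n = 3) and 93.6 ± 28.7 CPM (SD, n = 2), and the fitted level was 10.7-fold higher in NTC. The log2 fold change was -3.42 (SE 0.413, 95% interval -4.36 to -2.49, adjusted p-value 0.0202 by edgeR). DESeq2 gave -3.40 with an adjusted p-value of 5.39e-20. The call was lost without sgJUN#1 replicate 2, where the fold change was -3.13 with 0.0588 as its adjusted p-value in edgeR, and with the replicate number as a block (-3.08, adjusted p-value 0.179). In bulk RNA, fewer cells that express a gene and less RNA per cell cannot be told apart. The gene lies at chr3:99357319-99518070 on the plus strand (GRCh37).

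Raw counts of COL8A1 were 2044, 2683 and 6192 in NTC and 552 and 205 in sgJUN#1. The row of a microRNA gene, MIR548G, held 1.64, 1.48 and 1.47 times as many counts in the NTC libraries and 1.76 and 1.84 times as many in the sgJUN#1 libraries. The annotation used here places MIR548G on another chromosome, but the annotation behind the deposited counts is not given. Both rows moved together over the libraries, and whether they share reads was not tested. COL8A2 and COL10A1, the other members of the short-chain family, stayed at or below 0.814 CPM and were not reported.

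The makeup of the collagen counts differed between the groups. Libraries of this kind yield reads from the end of each transcript, so CPM was summed over genes with no correction for length. COL8A1 took 48.9%, 55.4% and 59.7% of the summed collagen CPM in NTC and 16.9% and 9.35% in sgJUN#1. The summed CPM of all collagens was 1150, 1972 and 2301 in NTC and 675 and 785 in sgJUN#1, with no overlap. Without COL8A1 it was 588, 880 and 927 in NTC and 561 and 711 in sgJUN#1, and the groups overlapped. The other collagens as a sum were therefore not separated between the groups.

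**Figure D2:**
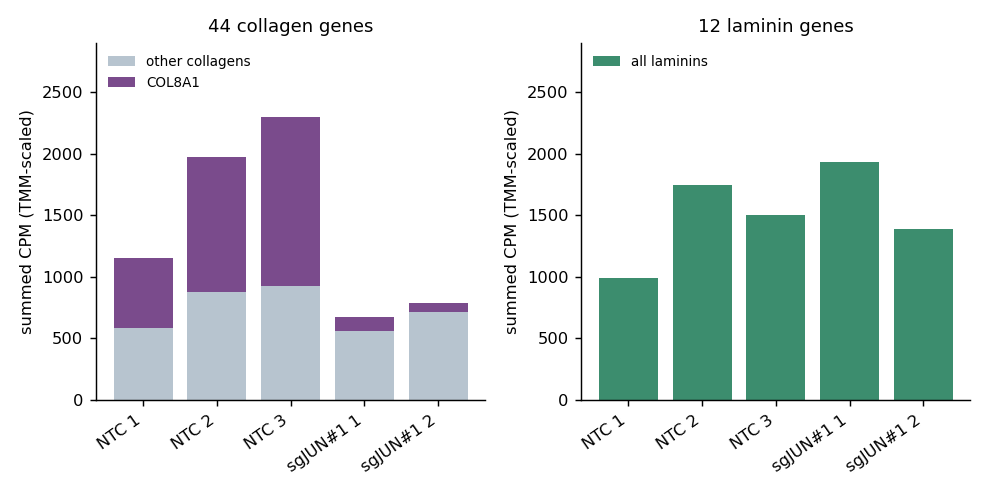
Summed CPM (TMM-scaled) of the 44 collagen genes and the 12 laminin genes in each library, as bars, with COL8A1 as a separate segment of the collagen bars. The COL8A1 segment makes up from 48.9% to 59.7% of the bar in NTC and 9.35% to 16.9% in sgJUN#1, and the laminin bars of the groups overlap.

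Collagen IV, the collagen of basement membranes, has 6 chains encoded by head-to-head gene pairs, and all 6 were tested. By sign 5 of them were lower and COL4A6 higher, the median log2 fold change was -0.57, and 0 of 6 passed the adjusted threshold. COL4A1 and COL4A2, the chains found in nearly all basement membranes, have 126 bases between their starts on chromosome 13. The stretch between their starts is shown because 1 short interval serves both genes and both had lower fitted levels in sgJUN#1. It is RefSeq sequence of GRCh38.p14, chr13:110307158-110307283, read in the direction of COL4A2, with a CCAAT box (CCAAT on either strand) in capitals.
COL4A1 and COL4A2: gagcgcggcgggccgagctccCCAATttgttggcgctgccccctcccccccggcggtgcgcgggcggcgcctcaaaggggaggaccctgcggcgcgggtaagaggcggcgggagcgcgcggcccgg

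A CCAAT match was held by 34.61% of all 35116 RefSeq promoter windows (250 bases before to 50 after a start) and by 11 of the 42 windows of reported members, so its presence here is a description.

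COL4A1 had 42.6, 86.3 and 37.04 CPM under NTC, against 45.2 and 29.7 CPM under sgJUN#1. These values overlapped, with a log2 fold change of -0.54 (SE 0.377, adjusted p-value 0.754 by edgeR). COL4A2 had 66.8, 118.4 and 73.6 CPM under NTC, against 65.0 and 46.9 CPM under sgJUN#1. Its groups did not overlap, although NTC replicate 1 and sgJUN#1 replicate 1 nearly met, and its log2 fold change was -0.61 (SE 0.287, adjusted p-value 0.621 by edgeR). In both genes NTC replicate 2 was the highest library, and without it the log2 fold changes were -0.078 for COL4A1 and -0.32 for COL4A2. The genes overlap by 1346 bases on opposite strands.

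COL4A3 and COL4A4, whose chains are part of the specialised network of kidney and lung basement membranes, have 418 bases between their starts. COL4A3 had 109.2, 189.3 and 217.4 CPM under NTC, against 82.6 and 101.6 CPM under sgJUN#1, with a log2 fold change of -0.90 (SE 0.295, adjusted p-value 0.417 by edgeR). These counts are uncertain as a measure of COL4A3. MFF-DT, a long non-coding gene on the opposite strand that overlaps it by 93741 bases, held 387, 464, 950, 396 and 284 counts where COL4A3 held 397, 465, 980, 400 and 284. How reads were assigned by strand is not given in the sources used here, and the source of these reads cannot be told apart. COL4A4 had 13.5, 13.4 and 45.7 CPM under NTC, against 7.84 and 12.9 CPM under sgJUN#1. Its log2 fold change of -1.29 (SE 0.602, adjusted p-value 0.634 by edgeR) became -0.41 without NTC replicate 3, the high library. For both genes all sgJUN#1 values lay below all NTC values.

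COL4A5 and COL4A6 have 379 bases between their starts on chromosome X. COL4A5 had 163.7, 207.2 and 263.3 CPM under NTC, against 140.8 and 239.0 CPM under sgJUN#1, with a log2 fold change of -0.16 (SE 0.281, adjusted p-value 0.924 by edgeR). COL4A6 had 57.8, 74.5 and 57.4 CPM under NTC, against 67.5 and 108.4 CPM under sgJUN#1, with a log2 fold change of 0.47 (SE 0.249, adjusted p-value 0.664 by edgeR). Both genes had overlapping groups, and the direction of COL4A5 turned when NTC replicate 3 or sgJUN#1 replicate 1 was left out.

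**Figure D3:**
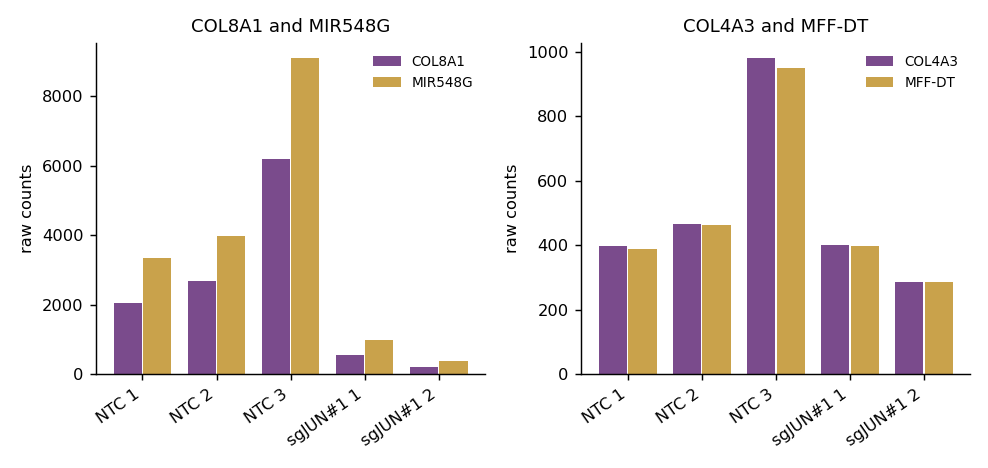
Raw counts in each library for COL8A1 beside MIR548G and for COL4A3 beside MFF-DT, as paired bars. The MIR548G bar is from 1.47 to 1.84 times the COL8A1 bar, and the COL4A3 and MFF-DT bars are nearly the same height in all 5 libraries.

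COL18A1 belongs to the multiplexins, basement membrane collagens that carry sugar chains, and its end fragment is known as endostatin. It had 10.7, 9.77 and 10.4 CPM under NTC, against 2.89 and 3.58 CPM under sgJUN#1. Both groups were tight and did not overlap. The log2 fold change was -1.69 (SE 0.355, 95% interval -2.49 to -0.89, adjusted p-value 0.139 by edgeR), so it did not pass the threshold, although it did with no filter on low counts (0.0445). The counts were small, 39, 24 and 47 in NTC and 14 and 10 in sgJUN#1. SLC19A1, which overlaps the gene by 20149 bases on the opposite strand, held more counts in every library. It held 70, 56 and 78 in NTC and 66 and 28 in sgJUN#1. COL15A1, the other multiplexin, was reported at 0.550 to 1.63 CPM and not tested.

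COL12A1 is a FACIT collagen that decorates collagen I fibrils. It had 28.6, 25.6 and 43.9 CPM under NTC, against 18.4 and 10.7 CPM under sgJUN#1. All JUN values lay below all control values, and the log2 fold change was -1.15 (SE 0.334, adjusted p-value 0.336 by edgeR). COL8A1 and COL12A1 were the 2 members found on the study's lists of YAP-regulated genes, which were drawn up on other libraries, in part from MCF10A cells with inducible YAP5SA. Both stand in cluster 2 of those YAP-induced genes and on the list from knockdown of YAP and TAZ. The study describes genes of that cluster as hardly or not changed by a JUN vector in the cells with inducible YAP. Here both genes had lower fitted levels in sgJUN#1, and COL8A1 alone passed the threshold. Why these directions differ from the description of cluster 2 was not tested. For SAM cells with this JUN guide against NTC, the study itself reports YAP target genes as the gene set lowered most strongly. TEAD factors, the DNA-binding partners of YAP, recognise GGAATG, and a match lies 167 bases upstream of the COL12A1 start. The stretch is RefSeq sequence of GRCh38.p14, chr6:75206184-75206243 on the minus strand, and is shown for that match, in capitals.
COL12A1: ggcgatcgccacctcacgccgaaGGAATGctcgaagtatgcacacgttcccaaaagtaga

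GGAATG, on either strand, was present in 14.03% of all promoter windows and in 2 of the 42 windows of reported members, the other being that of LAMA2. A window was given for 35 of the 45 reported members, and COL8A1 was among those without one.

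FACIT collagens as a class showed no common direction. Of 6 tested, COL12A1 included, 3 were lower and 3 higher by sign, with a median log2 fold change of -0.014. COL16A1, a minor fibril-associated collagen, had 10.2, 13.4 and 42.4 CPM under NTC, against 30.3 and 32.6 CPM under sgJUN#1. NTC replicate 3 stood above both JUN libraries and the other control libraries below them, and the log2 fold change was 0.48 (SE 0.553, adjusted p-value 0.865 by edgeR), or 1.43 without NTC replicate 3 and 0.13 without NTC replicate 1. With the replicate number as a block, a fit that calls 0.756% of all genes, COL16A1 was called, but equal numbers are not known to pair the libraries. COL9A3, reported and not tested, was at 1.55 to 1.93 CPM under NTC, against 0.619 and 1.07 CPM under sgJUN#1, which is at the level of a few counts.

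Fibrillar collagens were scarce. Of 11 genes 6 were reported and 4 tested, COL5A2, COL24A1, COL11A1 and COL27A1, at 1.65 to 21.1 CPM, with log2 fold changes from -0.86 to 0.27 and no adjusted p-value below 0.744 in edgeR. COL1A1, the main chain of collagen I, was at 0.814 to 0.887 CPM under NTC, against 2.27 and 1.07 CPM under sgJUN#1, and it was not tested. COL1A2 and COL3A1, the other chains of the main connective tissue fibrils, did not reach the reporting level. Among the 5 genes of collagen VI, which forms beaded filaments around cells, 3 were tested. COL6A1, which like the other chains of this class was named after its values were seen, had 16.8, 25.6 and 20.0 CPM under NTC, against 9.08 and 13.6 CPM under sgJUN#1, with a log2 fold change of -0.89 (SE 0.311, adjusted p-value 0.459 by edgeR). COL6A3 and COL6A6 had positive fitted changes of 0.31 and 0.16, so the tested chains of collagen VI did not share a sign.

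All 4 transmembrane collagens were tested, and all 4 had positive fitted log2 fold changes, with a median of 0.52. Over all tested genes 6669 of 13616 had a positive sign. COL13A1, named after its values were seen, was flat at 0.028 (SE 0.497), with mean CPM of 3.39 in NTC and 3.34 in sgJUN#1. None passed the threshold, and their levels were low, from 2.0 to 8.88 CPM. COL17A1, the hemidesmosome collagen, had 2.20, 7.73 and 3.99 CPM under NTC, against 8.88 and 6.44 CPM under sgJUN#1, with a log2 fold change of 0.81 (SE 0.488, adjusted p-value 0.709 by edgeR). NTC replicate 2 lay between the JUN libraries, and the value was 1.29 without it and 0.47 without NTC replicate 1. COL25A1, a membrane collagen known from neurons, had 2.48, 2.44 and 4.44 CPM under NTC, against 5.37 and 4.29 CPM under sgJUN#1, with a log2 fold change of 0.60 (SE 0.443, adjusted p-value 0.767 by edgeR). COL7A1, whose product forms the anchoring fibrils beneath the epithelial basement membrane, was at 0.619 to 2.44 CPM and had too few counts for the test.

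**Figure D4:**
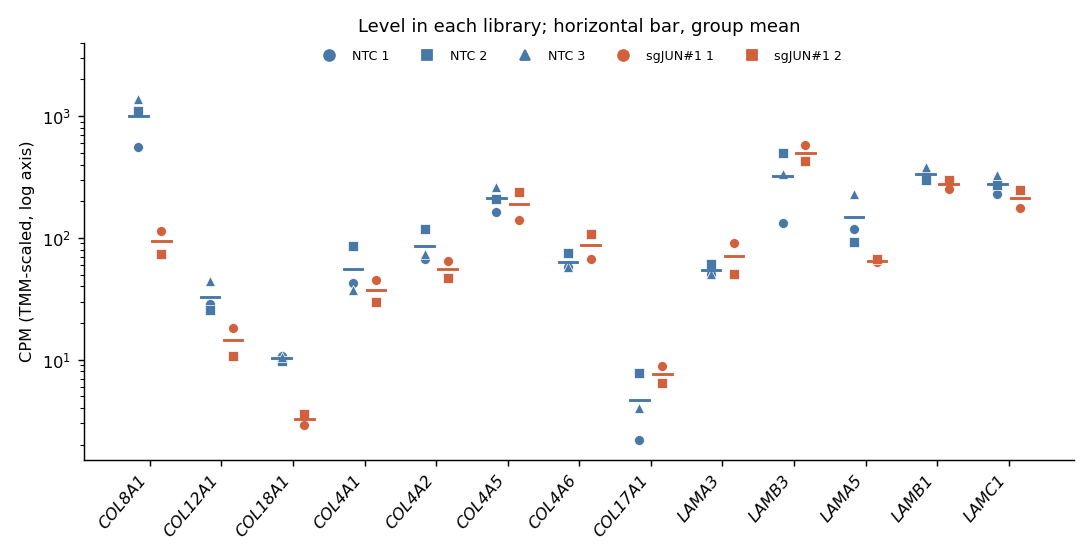
CPM (TMM-scaled, log axis) in each library for selected collagen and laminin genes, with one symbol per library and a bar for the group mean. COL8A1, COL12A1, COL18A1 and LAMA5 have both sgJUN#1 symbols below all NTC symbols, as do COL4A2 and LAMB1 by a narrow margin. LAMB3 has NTC replicate 2 between the sgJUN#1 symbols.

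LAMA3 and LAMB3, chains of laminin-332, were both higher in sgJUN#1 by sign, and neither passed the threshold or had groups that did not overlap. The promoters of LAMA3 and LAMB3 hold the AP-1 motif TGANTCA (searched on both strands), the motif JUN binds, and are shown for it. They are RefSeq sequences of GRCh38.p14, chr18:23872880-23872969 on the plus strand for LAMA3 and chr1:209651425-209651454 on the minus strand for LAMB3, upstream of 1 of the 3 starts listed for LAMB3. The matches are in capitals.
LAMA3: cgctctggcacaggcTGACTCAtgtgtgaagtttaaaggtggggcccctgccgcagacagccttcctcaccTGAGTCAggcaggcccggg
LAMB3: ccgtcagccactcTGACTCAttcactttgg

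The LAMA3 matches lie 125 and 69 bases upstream of the start and the LAMB3 match 67 bases upstream. Of all promoter windows 7.71% held the motif, against 2 of the 42 windows of reported members. These were 1 window each of LAMA3 and LAMB3, the 2 of 35 reported members with a window that held it. A match of letters says nothing on whether JUN was bound.

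LAMA3, the α chain of laminin-332, had 50.9, 61.1 and 50.8 CPM under NTC, against 91.2 and 50.4 CPM under sgJUN#1. One JUN library stood above all controls and the other below all of them, and the log2 fold change was 0.40 (SE 0.264, 95% interval -0.20 to 0.99, adjusted p-value 0.744 by edgeR). LAMB3, the β chain, had 133.1, 495.3 and 332.7 CPM under NTC, against 575.8 and 425.4 CPM under sgJUN#1. Its log2 fold change was 0.65 (SE 0.470, 95% interval -0.45 to 1.74, adjusted p-value 0.767 by edgeR). NTC replicate 2 lay between the JUN libraries while the other control libraries lay below them. Without that library the log2 fold change of LAMB3 was 1.10, without NTC replicate 1 it was 0.27, and it was called in none of the alternatives run.

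All 12 laminin genes summed to 988, 1741 and 1505 CPM in NTC and to 1930 and 1385 CPM in sgJUN#1, and the groups overlapped. Epithelial markers also varied over these libraries. EPCAM had 23.7, 7.33 and 23.3 CPM under NTC, against 143.9 and 56.5 CPM under sgJUN#1 (adjusted p-value 0.210 by edgeR). The epithelial list of 11 genes summed to between 1486 and 1987 CPM in NTC and to 2347 and 987 CPM in sgJUN#1. KRT17 also had both sgJUN#1 values above NTC, with a log2 fold change of 1.80. ITGB4, KRT14 and KRT7 went the other way, with both sgJUN#1 values below NTC and log2 fold changes of -2.55, -1.16 and -0.55. The other 6 overlapped, and 0 of the 11 were called. The part of these markers in the laminin values was not tested.

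LAMA5 encodes the α chain of the main laminin of mature epithelial and vascular basement membranes. It had 119.1, 93.2 and 231.1 CPM under NTC, against 63.4 and 66.9 CPM under sgJUN#1. The groups did not overlap, and the log2 fold change was -1.19 (SE 0.364, adjusted p-value 0.376 by edgeR, DESeq2 adjusted p-value 0.0740). It was -0.71 without NTC replicate 3, the highest library. ADRM1, which overlaps its end by 908 bases on the opposite strand, held 172, 104 and 163 counts in NTC and 252 and 116 in sgJUN#1. LAMA5 held 433, 229 and 1042 counts in NTC and 307 and 187 in sgJUN#1. Whether the LAMA5 and ADRM1 rows share reads was not tested.

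LAMB1 and LAMC1 encode the β and γ chains shared by most laminins outside hemidesmosomes. LAMB1 had 328.4, 301.2 and 379.7 CPM under NTC, against 250.2 and 299.1 CPM under sgJUN#1. Its groups did not overlap by a narrow margin, with a log2 fold change of -0.29 (SE 0.20, adjusted p-value 0.746 by edgeR). LAMC1 had 229.7, 269.0 and 330.3 CPM under NTC, against 174.4 and 248.3 CPM under sgJUN#1, with overlap and a log2 fold change of -0.39 (SE 0.238, adjusted p-value 0.716 by edgeR). Without sgJUN#1 replicate 1 the values were -0.17 for LAMB1 and -0.15 for LAMC1. LAMB1 shares 7932 bases with DLD on the opposite strand, and strand handling is not given in the sources used here.

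The remaining laminins were lower in count. LAMA1, the α chain of embryonic basement membranes, had a log2 fold change of 0.28 at 7.10 to 13.8 CPM. LAMA2, the α chain of muscle laminin, had -0.16 at 15.5 to 35.7 CPM, and its sign turned in 3 of the alternatives. LAMB2 had -0.57 at 8.46 to 25.3 CPM, and LAMB4 had -0.65 at 1.38 to 4.44 CPM. LAMB2 was at -0.13 without NTC replicate 3 and -0.17 without sgJUN#1 replicate 1, LAMB4 at -0.33 without sgJUN#1 replicate 1, and LAMA1 at 0.086 without NTC replicate 3. All 4 had overlapping groups. LAMA4 (1.03 to 3.30 CPM) and LAMC3 (0.825 to 2.0 CPM) were reported and not tested. The 10 tested laminins had a median log2 fold change of -0.23, with 6 lower and 4 higher by sign, against -0.17 for the 26 tested collagens.

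Genes that process, bind or accompany collagens and laminins were read from the same fit. Of 75 listed genes 61 were tested and 0 passed the edgeR threshold, while DESeq2 called 1, FBLN1. With p-values left unadjusted, 6 were under 0.05 and higher and 7 lower (21.3%, against 8.38% of all genes). In 26 (42.6%, against 25.0%) the groups did not overlap, 15 above and 11 below. The signs were nearly even, and the median log2 fold change was -0.026.

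Among 28 tested genes of collagen processing, the largest positive values were those of TLL1, a protease that removes procollagen end pieces (1.63, SE 0.482), P4HA2, a prolyl hydroxylase subunit (0.92, SE 0.284), and P3H2 (0.85, SE 0.394). The largest negative values were those of BMP1, the procollagen C-proteinase (-0.90, SE 0.331), FKBP10, a collagen chaperone (-0.88, SE 0.311), and P3H1 (-0.75, SE 0.425). The P3H1 value ran from -0.15 without sgJUN#1 replicate 1 to -1.51 without sgJUN#1 replicate 2, and that of P3H2 was near 0 without sgJUN#1 replicate 1. BMP1 and FKBP10 were at -0.53 and -0.57 without NTC replicate 3. TLL1 and BMP1, which share the cleavage step, had opposite signs, and both had groups that did not overlap.

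Of 15 tested receptors, ITGB4, the integrin chain that holds laminin-332 in hemidesmosomes, had 118.8, 47.6 and 292.3 CPM under NTC, against 26.4 and 26.1 CPM under sgJUN#1. The controls spread widely, both JUN libraries were below them, and the log2 fold change was -2.55 (SE 0.770, adjusted p-value 0.459 by edgeR, and 0.0249 without NTC replicate 2). It was -1.68 without NTC replicate 3 (adjusted p-value 0.232 by edgeR) and -1.57 with the replicate block (0.0993). Its partner ITGA6 was at 80.7 to 84.7 CPM under NTC, against 97.0 and 87.7 CPM under sgJUN#1, named after its values were seen. ITGB1, the β chain of most other collagen and laminin receptors, had 313.0, 354.9 and 270.4 CPM under NTC, against 451.8 and 639.0 CPM under sgJUN#1 (log2 fold change 0.80, SE 0.217, adjusted p-value 0.286 by edgeR). ITGB4 and the LAMA3 and LAMB3 chains of its ligand thus had opposite signs in the fit, and none of these values passed the threshold. MRC2, an endocytic collagen receptor, had -1.01 (SE 0.246) and ITGA1, a collagen-binding integrin chain, -0.68 (SE 0.233). SDC1 and SDC4, cell surface proteoglycans, had 0.90 (SE 0.263) and 0.62 (SE 0.192).

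Of 18 tested genes of other basement membrane proteins, FBLN1, a glycoprotein of basement membranes and elastic fibres, had 100.1, 84.3 and 146.4 CPM under NTC, against 33.2 and 40.1 CPM under sgJUN#1. The groups were well separated, with a log2 fold change of -1.60 (SE 0.276, adjusted p-value 0.0733 by edgeR, DESeq2 adjusted p-value 9.03e-05). TINAGL1 had -1.22 (SE 0.357) and TINAG -1.003 (SE 0.578). MATN2, SMOC1 and FRAS1, the last of which links epithelium to the underlying matrix, had values of 0.82, 0.37 and 0.37. Each of these genes had groups that did not overlap.

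The members below the reporting level were COL1A2, COL2A1, COL3A1, COL5A1, COL6A5, COL8A2, COL9A1, COL9A2, COL10A1, COL11A2 and COL20A1. These 11 genes had at most 5 counts in a library and none was at 0 in every library. The 9 genes reported and not tested were COL1A1, COL5A3, COL6A2, COL7A1, COL9A3, COL15A1, COL28A1, LAMA4 and LAMC3, at 0 to 7.10 CPM. Without COL8A1 and COL4A3, the members whose counts ran in parallel with another row, 34 tested genes remained. None of these was called, COL8A1 having been the only call, and the median log2 fold change was -0.16. With edgeR p-values left unadjusted, 4 were under 0.05, all lower (11.8%, against 8.38% of all genes). In 7 the groups did not overlap, all below (20.6%, against 25.0%).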

How the data were processed

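RNA from 3 NTC and 2 sgJUN#1 libraries of MCF10A SAM cells was sequenced with QuantSeq 3′ FWD. Per the methods of the study, the authors trimmed reads with Cutadapt, aligned them to hg19 with Bowtie2 and counted them per gene in R with countOverlaps. The submitters' processing notes give Cutadapt 4.2 and Bowtie2 2.3.5.1. The authors deposited raw gene counts, with no normalisation. The annotation, strand and multiple alignments were not given in the sources used here, so overlapping genes can share reads. PCR copies may count as separate reads.

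Groups and replicate numbers came from the sample titles. The main test was quasi-likelihood F in edgeR 4.0.16 under R 4.3.3 (TMM, filterByExpr, robust estimation), with no term besides group. It covered 13616 genes, and p-values were Benjamini-Hochberg adjusted over all of them (threshold 0.05). The study's methods name DESeq2, used here (1.42.0) as an alternative beside limma-voom (limma 3.58.1), other normalisations and filters, the replicate number as a block and leaving out each library. SE was obtained by dividing each log2 fold change by √F. CPM used TMM-scaled library sizes. The fit was tested on simulated data.

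Symbols (23308 of 23459 genes) and promoter windows came from RefSeq on GRCh38.p14, and gene positions and overlaps from GENCODE on GRCh37. Gene classes, lists and members were chosen with earlier results of these data known. Named were JUN, members called in any fit of all 5 libraries, the 6 largest rises and falls among tested members, all tested laminins and collagen IV, VII and XVII chains, and the 3 largest rises and falls of each of 3 pathway lists, with exceptions stated. One item that this rule names is not reported here.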

Additional observations from a re-analysis of the deposited data

How the results depend on the processing

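Among named members, 19 of 22 kept one direction in all alternatives run. The exceptions were COL4A5 (0.032 without NTC replicate 3, 0.18 without sgJUN#1 replicate 1), LAMA2 (0.17 with the replicate block, 0.22 and 0.26 without the same 2 libraries) and LAMA3 (-0.10 without sgJUN#1 replicate 1). Of the pathway genes P3H2 turned to -0.017 without sgJUN#1 replicate 1. Without sgJUN#1 replicate 2 the values were -0.58 for COL4A5, -0.67 for LAMA2, 0.76 for LAMA3 and 1.37 for P3H2. COL8A1 ranged from -3.78 to -3.08 and passed in 10 of 12 alternatives. With no filter 2 members were called, COL8A1 and COL18A1, and leaving out a library gave 0 to 1. The count of members without overlap went from 11 of 33 tested (without NTC replicate 3) to 24 of 39 (without sgJUN#1 replicate 2) when a library was left out. Fewer libraries make separation easier, and no share over all genes is given for these fits, so the counts are a description. Over all genes, 139 were called by DESeq2, 148 with no filter, 103 with the replicate block and 10 to 57 without a library. JUN was 3.24 by DESeq2, 2.82 with the block, and 2.85 to 3.68 without a library. Of the pathway genes DESeq2 called 1, no filter 2 and the block 1, and leaving out a library 0 to 2. The median of the members stayed negative and ranged from -0.42 to -0.023. The cause of these changes was not tested.

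With the replicate block, 1 member was called, COL16A1 (log2 fold change 1.43, edgeR adjusted p-value 0.0487), and COL8A1 was not (-3.08, 0.179). The numbers are not known to mark a shared culture or day. The deposited column names are consecutive within replicate 1 and within replicate 2, and what this order marks is not given. The difference between replicates 1 and 2 correlated at 0.0146 over genes between the groups, which cannot settle whether the libraries were paired. No block value exists for the overlap count, which is not fitted. With 2 sgJUN#1 libraries, leaving one out assumes that the other varies like NTC. At this depth, members under about 1.22 CPM rest on 3 counts or fewer in the shallowest library.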
